A study of Mus musculus with 10 samples.

Results

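Strong H3K9me3 outside promoters that was present in both Arid1a genotypes was examined at 1432 genomic summits. These summits were chosen on measured values. Each was an autosomal H3K9me3 summit of wildtype (WT) cells whose −log10 q-value reached 5, had a knockout (KO) H3K9me3 summit of at least 5 within 1 kb, and had no annotated transcript start within 2 kb. Of the 143835 WT and 134976 KO H3K9me3 summits, 141657 WT summits were autosomal, 5787 of those reached the threshold and 5011 of those were distal. The 1432 members were 28.6% of the strong distal summits and 0.996% of the whole WT list. They paired with 1357 distinct KO summits, because a few neighbouring WT summits shared a partner.

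The samples were ChIP-seq libraries of AB17 cells, hepatocytes from a C57BL/6 mouse with both Arid1a alleles floxed (Arid1a fl/fl), immortalized with SV40 large T antigen and carrying the activated H-Ras V12D. WT cells had received the GFP adenovirus Ad-GFP and KO cells the Cre adenovirus Ad-Cre, so both groups shared the immortalizing genes and differed in the virus as well as in Arid1a. Both genotypes were profiled for H3K9me3 and H3K27me3, and WT cells alone for Arid1a, Brg1, Ctcf and Rad21, with 1 library each. One cell line was used, there were no replicate libraries, and the lists used here hold no measure of Arid1a in KO cells, so differences between genotypes were not tested. The read depth is unknown from the lists, and the 95% Wilson intervals given below cover nothing but counting error, and summits that lie close together are not independent.

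H3K9me3 is the histone mark of constitutive heterochromatin and is read by HP1 proteins. SUV39H enzymes place it at satellite repeats around centromeres, and SETDB1, brought by TRIM28 and KRAB zinc finger proteins, places it at endogenous retroviruses and at genes of the zinc finger family itself. Arid1a is a subunit and Brg1 (Smarca4) the ATPase of the SWI/SNF remodelling complex, while Ctcf and the cohesin subunit Rad21 organise chromatin loops.

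Most of the shared summits were weak ones just over the threshold, and a small number were very strong. The WT value had a median of 6.43, with quartiles of 5.59 and 8.21 and a highest value of 60.8. The paired KO value had a median of 6.31, with quartiles of 5.30 and 7.82 and a highest value of 126. Both values were at least 10 at 61 members and at least 20 at 16. The median distance from the WT to the KO summit was 288 bp, and it was 26 bp where both values were at least 10. At the edge of the rule, the lowest WT and KO values of members were both 5.008, and the highest values that missed were 4.998 for WT and 4.970 for KO. The most distant KO partner lay 1000 bp away and the nearest strong KO summit of a rejected WT summit was 1 bp farther. The nearest transcript start of a member was at 2003 bp, and 168 summits met every other condition but lay within 2 kb of a start, the farthest of them at 1985 bp. The values fell on few steps: the 10 commonest WT values covered 44.2% of members and the 10 commonest KO values 46.7%. These values chose the members and are given as a description.

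**Figure D1:**
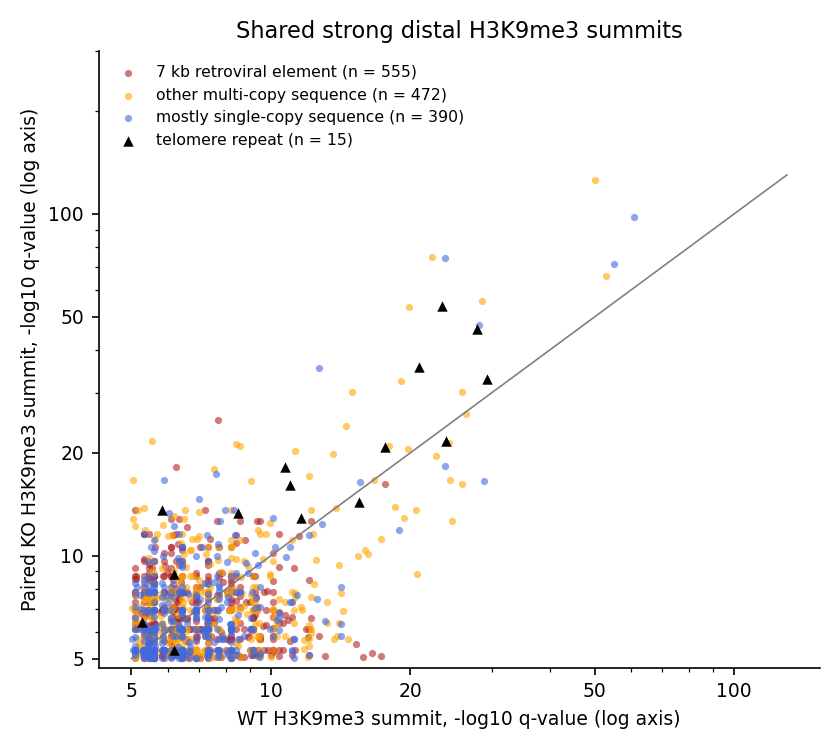
WT against KO H3K9me3 −log10 q-value at each of the 1432 members, both on log axes, with the line of equal values and points coloured by the sequence under the summit. The telomere-repeat members reach high values in both lists, whereas the members on the 7 kb retroviral element crowd near the threshold of 5, with 5 of 555 at 10 or more in both.

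The 4 strongest members, ranked by the lower of their WT and KO values, are shown first because they stand apart from all others. Their sequences are given over 101 bases centred on the WT summit in GRCm38.p6, with every CpG in capitals.
Member near Axin2, chr11:109011832-109011932, plus strand: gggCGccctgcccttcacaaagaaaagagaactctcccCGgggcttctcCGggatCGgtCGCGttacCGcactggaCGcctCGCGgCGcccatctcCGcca
Member near Muc3, chr5:137152360-137152460, plus strand: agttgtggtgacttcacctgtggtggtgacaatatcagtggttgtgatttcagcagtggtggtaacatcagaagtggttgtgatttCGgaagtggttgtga
Member in Filip1l and Cmss1, chr16:57391404-57391504, plus strand: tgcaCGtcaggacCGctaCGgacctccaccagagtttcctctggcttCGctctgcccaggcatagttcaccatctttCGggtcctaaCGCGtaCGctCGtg
Member on chromosome 3, chr3:5860521-5860621, plus strand: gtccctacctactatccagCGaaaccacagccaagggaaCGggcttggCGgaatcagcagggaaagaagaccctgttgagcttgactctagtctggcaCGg

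The member 91533 bp from the start of Axin2, a feedback inhibitor of Wnt signalling, had a WT value of 60.8 and a KO value of 98.0. It was intergenic, and the window of 250 bases on each side of the summit held 34 CpGs. The member near Muc3, which encodes a membrane mucin, lay 3088 bp from the transcript start and had values of 55.1 in WT and 71.4 in KO cells, with 1 CpG in the window and none of the other lists within 1 kb. The intronic member in the overlapping genes Filip1l and Cmss1 had values of 52.9 and 65.6 and 49 CpGs. The intergenic member on chromosome 3 had values of 49.99 and 126 and 42 CpGs, and its nearest coding start, of Gm8797, was 109765 bp away. At all 4, the KO summit lay within 11 bp of the WT summit, and 91.8% of the 36-base words of the window near Axin2 occurred once in the reference, against 33.7% in the window in Filip1l.

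Of these 4 strongest members, 3 also carried H3K27me3, the Polycomb mark, at almost the same base in both genotypes. Near Axin2, the H3K27me3 summits were 8 bp away with a value of 43.3 in WT cells and 2 bp away with 59.7 in KO cells. In Filip1l they were 11 bp away with 46.8 in WT cells and 21 bp away with 57.9 in KO cells. On chromosome 3 they were 3 bp away with 43.9 in WT cells and 5 bp away with 84.2 in KO cells. The same held at weaker members of the 12 strongest. The exonic member in Lars2, the mitochondrial leucyl-tRNA synthetase, had H3K9me3 values of 28.1 and 47.3, and the H3K27me3 summits had values of 23.4 (WT) and 25.5 (KO). The intronic member in Cdk8, the Mediator kinase, had H3K9me3 values of 23.8 and 74.1, and the H3K27me3 summits had values of 18.6 (WT) and 55.1 (KO). Summits of several antibodies thus lay on the same bases, and whether the antibodies or the sequence itself gave these summits was not tested.

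The other members among the 12 strongest were repeat sequence. A telomere repeat lay under 3 of them. The member on chromosome 10 at position 3110130 had values of 28.5 in WT and 55.6 in KO cells, and 100% of its window was soft-masked, which marks repeats in the reference. A pair of members in introns of the predicted gene Gm26870 on chromosome 9, at positions 3009426 and 3010976, had WT values of 25.9 and 26.4 and KO values of 30.1 and 25.9. Both lay near summits of the SWI/SNF subunits, at 8 and 42 bp from Arid1a and at 4 and 33 bp from Brg1, and no 36-base word in either window occurred only once in the reference.

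The makeup of the members changed with their strength. Among the 833 members with a lower value of 5 to 6, 3.12% had a summit of any of the 6 other lists within 50 bp, and among the 16 members at 20 or more it was 81.2%, which is 13 members. H3K27me3 of either genotype within 50 bp went from 0.600% to 31.2% between these classes, and Rad21 within 50 bp from 1.08% to 37.5%. The share within 10 kb of a gap in the assembly went from 0.600% to 56.2%. The median distance between the WT and KO summits went from 341 to 9 bp. Of all members 43 lay within 10 kb of a gap, 3.0% (2.24 to 4.02), compared with 0.769% of WT-only summits, 1.08% of KO-only summits and 0.325% of every 10th distal WT summit, sets that are defined below. The part of assembly gaps in the strong values was not tested.

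**Figure D2:**
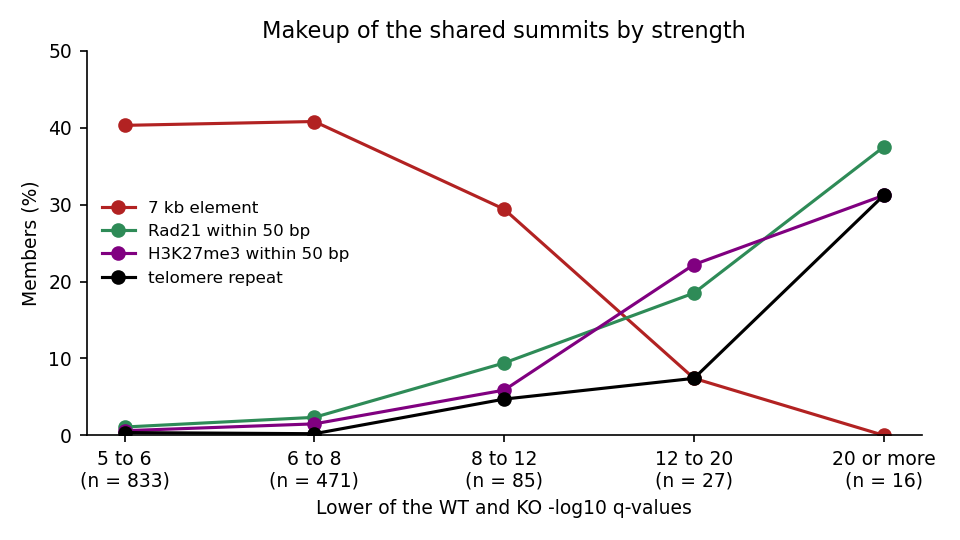
Share of members, in percent, that lie on the 7 kb element, hold the telomere repeat, or have a Rad21 or H3K27me3 summit within 50 bp, in 5 classes of the lower of the WT and KO −log10 q-values. The element accounts for 40.3% of the weakest class and 0 of the 16 strongest members, while the other 3 shares rise to between 31.2% and 37.5%.

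To examine the sequence under the mark, the window of 250 bases on each side of each WT summit was compared with the whole reference. Repeated sequence predominated. The summit base was soft-masked at 76.7% of members (74.5 to 78.9), compared with 43.1% of every 10th distal autosomal WT summit and 33.5% of all autosomal bases. It was soft-masked at 47.6% of the 1301 WT-only summits (44.9 to 50.3), the strong distal WT summits with no KO summit of any strength within 1 kb, and at 68.9% of the 1394 KO-only summits (66.4 to 71.2), defined in the same way in the other direction. A further 2278 strong distal WT summits, called weak-KO summits here, had a KO summit within 1 kb only below the threshold. Of these, 65.7% were soft-masked (63.7 to 67.6), between WT-only summits and members. The median GC content was 49.5% at members, 47.9% at WT-only and 44.1% at KO-only summits, and the median CpG count was 12, 6 and 5. The WT-only summits were also weaker than the members in WT cells, with a median value of 5.59.

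Copy number separated the sets more clearly. A window was called multi-copy where under 50% of its 36-base words occurred once in the reference. Of the members, 1037 were multi-copy, or 72.4% (70.0 to 74.7), compared with 29.7% of WT-only summits (27.3 to 32.2), 60.6% of KO-only summits (58.0 to 63.1) and 23.0% of every 10th distal summit. Weak-KO summits lay between members and WT-only summits, with 53.8% multi-copy (51.7 to 55.8). The median word occurred 55.5 times at members, 1 time at WT-only and 6.0 times at KO-only summits. Of the strong distal WT summits, 39.2% of the multi-copy ones were members and 16.7% of the 2363 mostly single-copy ones. Reads from identical copies cannot be assigned to 1 copy, so the position of a multi-copy summit names a sequence more securely than a locus. How far read assignment set these shares was not tested.

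**Figure D3:**
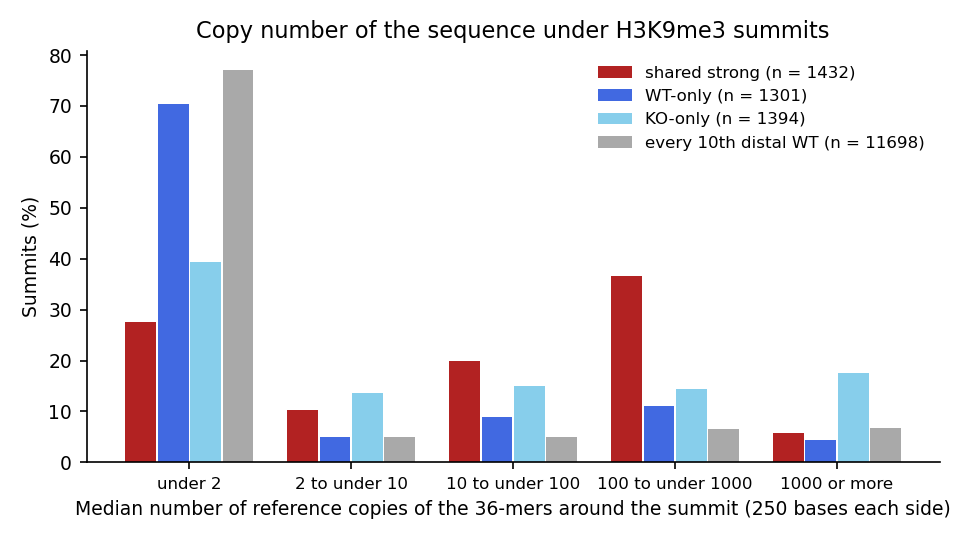
Share of summits, in percent, by the median number of reference copies of the 36-base words in the window around the summit, for members, WT-only, KO-only and every 10th distal WT summit. Members are most frequent at 100 to under 1000 copies (36.6%), where WT-only summits reach 11.1%, and 27.6% of members are under 2 copies, against 70.3% of WT-only summits.

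Alignment of the windows with each other (at least 150 bases at 80% identity to a central window) placed 1085 members in 111 families of related sequence and left 347 with no relative. The 6 largest families held 186, 121, 89, 45, 37 and 35 members, 35.8% of the total. Family 1 was found on 19 autosomes, and its members had a median WT value of 6.79 and a median KO value of 6.61. The strongest members of the first 3 families are shown in the same form as above, with CpGs in capitals.
Family 1, chr9:119869861-119869961, plus strand: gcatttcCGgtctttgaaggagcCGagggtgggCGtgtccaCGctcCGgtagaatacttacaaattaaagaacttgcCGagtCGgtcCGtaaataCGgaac
Family 2, chr1:76777383-76777483, plus strand: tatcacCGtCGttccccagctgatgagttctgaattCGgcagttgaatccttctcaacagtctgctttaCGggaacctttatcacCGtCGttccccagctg
Family 3, chr7:98011878-98011978, plus strand: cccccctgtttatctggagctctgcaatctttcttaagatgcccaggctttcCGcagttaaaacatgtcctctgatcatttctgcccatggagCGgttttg

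The strongest member of family 1 was intergenic, with values of 12.2 in WT and 12.6 in KO cells, and that of family 2 was intergenic with 10.4 and 11.6. Family 3 had its strongest member in an intron of Gdpd4 (11.2 and 9.22), and family 4 in an intron of Znrf3, a ubiquitin ligase that removes Wnt receptors (8.57 and 7.65). The strongest member of family 5 was intergenic with 17.6 and 16.2, and that of family 6 was in an intron of Tmem135 with 11.3 and 7.57. Of the strong distal WT summits that aligned to a family, 51.0% were members in family 1 (45.8 to 56.1), 37.2% in family 2 (32.2 to 42.6), 49.4% in family 3, 34.9% in family 4, 29.8% in family 5 and 52.2% in family 6. The families were built around member windows, which raises these shares by construction. Of all strong distal WT summits, 28.6% were members.

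The first 5 of these families lay in a fixed order in the reference, as pieces of a single element. Of the 1414 reference copies of the family 1 centre that are at least 400 bases long, 1102 had a copy of the family 2 centre nearby on the same strand, at a median distance of 1028 bp. The median distance was 737 bp between families 1 and 3, 3071 bp between families 3 and 5, and 1215 bp between families 5 and 4. Copies of the family 6 centre were near family 4 in 439 of 443 cases but near family 1 in 6, and 27 of the 35 family 6 members aligned to the element. In this order and spacing, within 25 bp, 279 intact copies were found. A copy on the minus strand at chr15:17156894-17163970 served as the reference. It was 7077 bp long, with long terminal repeats (LTRs) of 339 bp at both ends that were 100% identical. Starting at base 2 after the 5′ LTR was the sequence that pairs with the 3′ end of phenylalanine tRNA, the primer from which such a retroviral element copies its RNA. The junction is shown on the element's own strand over 80 bases, the first 40 of them LTR, with these letters in capitals.
Junction of the 5′ LTR and the internal sequence, chr15:17163592-17163671, minus strand: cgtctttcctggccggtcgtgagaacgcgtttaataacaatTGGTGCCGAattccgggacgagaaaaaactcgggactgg

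Intracisternal A particles, a mouse family of endogenous retroviruses, are known to use a phenylalanine tRNA primer. No repeat annotation was used, so the element is called here by its layout. Its primer letters TGGTGCCGA, searched on both strands, occurred in 77 members, or 5.38% (4.32 to 6.67), of which 52 were in family 2. They occurred in 2.55% of weak-KO, 1.61% of WT-only, 2.44% of KO-only and 0.838% of every 10th distal window. The letters for lysine tRNA (TGGCGCCCG) occurred in 1 member, and those for proline tRNA (TGGGGGCTC) in 16, or 1.12%, compared with 0.556% of every 10th window. The letters TGCCGC are the core of the motif of Zfp57, a KRAB zinc finger protein that guards imprinted genes. These letters occurred in 18.9% of members (17.0 to 21.0), 15.5% of weak-KO (14.1 to 17.0), 10.3% of WT-only, 7.75% of KO-only and 6.65% of every 10th window. Family 2 held 93 of the 271 members with these letters, family 3 held 39 and family 4 held 33. The letters include a CpG, and the median CpG count of a window was 12, 8, 6, 5 and 5 in these sets. The part of CpG content in these shares was not tested. The primer letters and TGCCGC share the bases TGCCG, but not the whole of either motif.

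Altogether 555 members, 38.8% (36.3 to 41.3), aligned to the 7 kb element. The share was 11.1% of WT-only summits (9.48 to 12.9), 14.1% of KO-only summits (12.4 to 16.1) and 5.96% of every 10th distal summit. Of the weak-KO summits, 621 aligned to it, 27.3% (25.5 to 29.1). The element was thus not particular to members. Of the 1320 strong distal WT summits on the element, 42.0% were members, compared with 23.8% of the 3691 that did not align to it. The element was found through the largest families of member windows. This choice favours members in all these shares, which are given as a description. The members on the element were weak as single summits, with a median WT value of 6.34 and a median KO value of 6.37, and 5 of them had both values at 10 or more.

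Along the element the members were unevenly placed. Bases past 1000 up to 2500, which are 21.2% of its length, held 262 members, or 47.2% of those aligned. The 5′ LTR held 67 members, 12.1% of those aligned on 4.79% of the length, and the stretch from it to base 1000 held 73, or 13.2%. Bases past 2500 up to 4500, 28.3% of the length, held 24 members, or 4.32%. KO-only summits were placed otherwise, with 15.2% of their 197 aligned summits in the former stretch and 26.4% in the latter. WT-only summits had 30.6% and 9.72% of their 144 aligned summits there. Every 10th distal WT summit had 23.7% and 13.5% of its aligned summits there, with 10.3% in the 5′ LTR and 12.3% from it to base 1000. The shares of members in the 5′ LTR and up to base 1000 were thus near this background. Since the LTRs are identical, a window that matched an LTR alone was counted in the 5′ LTR, whichever end it came from. The 3′ LTR held 26 members, so the 67 of the 5′ LTR may include some of its summits. A summit outside its aligned stretch was placed at the nearer edge of that stretch.

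**Figure D4:**
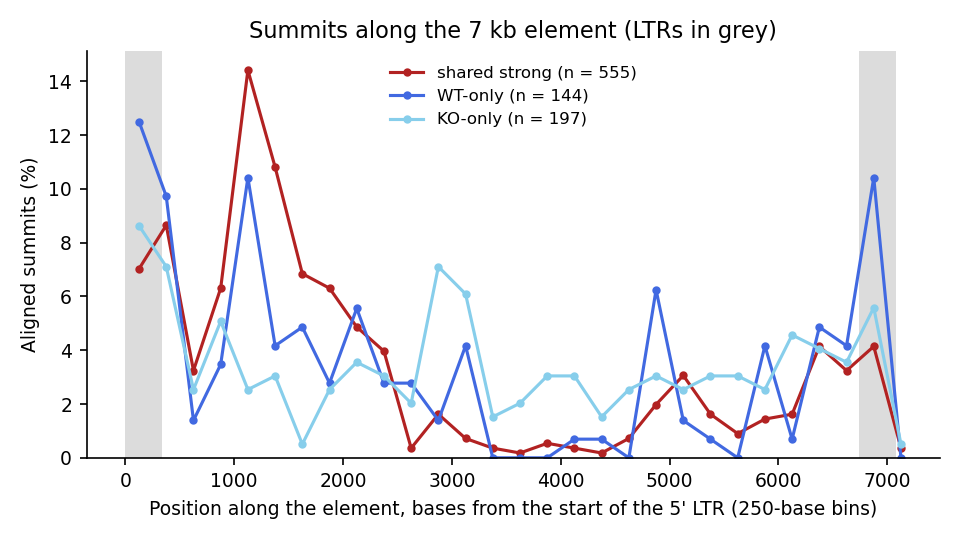
Position of the summit base along the 7077-base element in 250-base bins, as a percentage of the aligned summits of each set, with the LTRs shaded. All sets shown are high in the 5′ LTR region. Members peak just past base 1000, and their line is near 0 between 3000 and 4500 bases, where KO-only summits continue. Windows that matched an LTR alone were drawn in the 5′ LTR.

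Telomere repeats were a smaller class with higher values. At least 3 adjacent units of the vertebrate telomere repeat, on either strand, were present in 15 members, or 1.05%. All 15 strong distal WT summits with this repeat were members, and it occurred in 0 KO-only and 0 WT-only windows and in 3 of 11698 every-10th windows. Of the 15, 10 lay within 20 kb of the last sequenced base of a chromosome. The other 5 were internal, on chromosomes 3, 6, 8, 16 and 17, and 3 of these were intronic.

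The WT values of the telomere-repeat members ranged from 5.26 to 29.3 with a median of 11.6, and the KO values from 5.29 to 53.7 with a median of 16.1. The member at the end of chromosome 7 had 27.9 in WT and 46.1 in KO cells, that of chromosome 18 had 23.4 and 53.7, and that of chromosome 14 had 20.9 and 35.7. A Rad21 summit lay within 1 kb of all 15 and within 50 bp of 14, with values from 1.92 to 19.97 and a median of 7.91. By contrast, Ctcf lay within 1 kb of 1, Arid1a of 2, Brg1 of 2 and H3K27me3 of 0. Rad21 without Ctcf was thus the commonest pattern at these members in WT cells. All 15 windows hold the same short repeat, and reads from within it cannot be told apart. In 1 of the 15 windows no 36-base word occurred once in the reference, and the other windows held some that did.

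Next, the other summit lists were placed around the members. None of the 6 other lists had a summit within 1 kb of 992 members, 69.3% (66.8 to 71.6), compared with 54.0% of WT-only summits (51.2 to 56.7), 76.1% of KO-only summits (73.8 to 78.3) and 61.8% of all distal autosomal WT summits. One list was near 304 members, 99 had a pair of lists, and 5 had 5 or 6 of them. The last count is 0.349% of members (0.149 to 0.815), compared with 0.0513% of all distal autosomal WT summits. It was 0.0878% of weak-KO summits and 0 of WT-only and of KO-only summits. The counts for 1 list and for a pair have no background here.

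SWI/SNF subunits were near fewer members than WT-only summits, but the WT-only shares were also above those of all distal WT summits. Arid1a lay within 1 kb of 128 members, 8.94% (7.57 to 10.5), compared with 16.6% of WT-only summits (14.7 to 18.7), 6.67% of KO-only summits and 10.2% of all distal WT summits. Brg1 lay within 1 kb of 138 members, 9.64% (8.21 to 11.3), compared with 17.8% (15.85 to 20.01), 6.10% and 11.8%. The share of members with Arid1a was therefore near the background, and that with Brg1 was slightly below it. At weak-KO summits Arid1a was near 12.7% and Brg1 near 10.9%. Both subunits were near 39 members, 2.72%, and near 6.69% of WT-only summits. The subunit summits near members were weak, with median values of 2.69 for Arid1a and 2.56 for Brg1. On the element, Arid1a was near 8.11% of members and Brg1 near 3.96%.

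Copy number went with these shares. Among mostly single-copy windows, Arid1a or Brg1 was near 22.8% of members (18.9 to 27.2), 32.8% of WT-only summits (29.8 to 35.9) and 20.2% of every 10th distal summit. Among multi-copy windows, the shares were 13.2% of members (11.3 to 15.4), 15.8% of WT-only summits (12.5 to 19.8) and 11.1% of every 10th. The intervals of members and WT-only summits thus overlapped in multi-copy sequence and did not in single-copy sequence. In neither class was the share of members below that of every 10th distal summit.

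Ctcf lay within 1 kb of 76 members, 5.31% (4.26 to 6.59), which was below the 14.1% of WT-only summits (12.3 to 16.1) and the 10.6% of all distal WT summits and near the 4.88% of KO-only summits. Rad21 lay within 1 kb of 203 members, 14.2% (12.5 to 16.1), compared with 22.0% of WT-only summits (19.8 to 24.3), 6.38% of KO-only summits (5.22 to 7.79) and 13.8% of all distal WT summits. The share of members with Rad21 was therefore near the background. At weak-KO summits Ctcf was near 7.77% and Rad21 near 12.9%. Both were near 34 members, 2.37% (1.70 to 3.30), near 8.30% of WT-only summits and near 5.62% of every 10th distal WT summit. In multi-copy windows Rad21 was near 14.0% of members (12 to 16.2) and 5.45% of every 10th summit (4.66 to 6.37), while in single-copy windows it was near 14.7% and 16.5%. Among WT-only summits, Rad21 was near 11.9% of multi-copy (9.05 to 15.5) and 26.2% of single-copy windows (23.5 to 29.2). Ctcf was near 4.92% of multi-copy members and 4.66% of multi-copy WT-only summits, and near 6.33% (4.32 to 9.18) and 18% (15.7 to 20.7) in single-copy windows. The lower shares of members than of WT-only summits for Ctcf and Rad21 were thus seen in single-copy and not in multi-copy windows. Rad21 lay within 50 bp of 2.72% of members (2.0 to 3.7) and of 1.15% of all distal WT summits.

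H3K27me3 was scarce. It lay within 1 kb of 53 members in WT cells, 3.7% (2.84 to 4.81), compared with 3.92% of WT-only and 4.09% of KO-only summits and 7.76% of all distal WT summits. In KO cells it lay near 35 members, 2.44% (1.76 to 3.38), compared with 2.61%, 4.81% and 5.01%. H3K27me3 of both genotypes was near 26 members, that of WT alone near 27 and that of KO alone near 9. On the 555 members of the element, H3K27me3 was found near 3 in WT cells and near 0 in KO cells, which allows a share of up to 0.541% (3 of 555), or 0.687% by the Wilson interval. Where H3K27me3 was present it lay close, at a median of 75 bp in WT cells, compared with 345 bp over all distal summits with a partner.

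**Figure D5:**
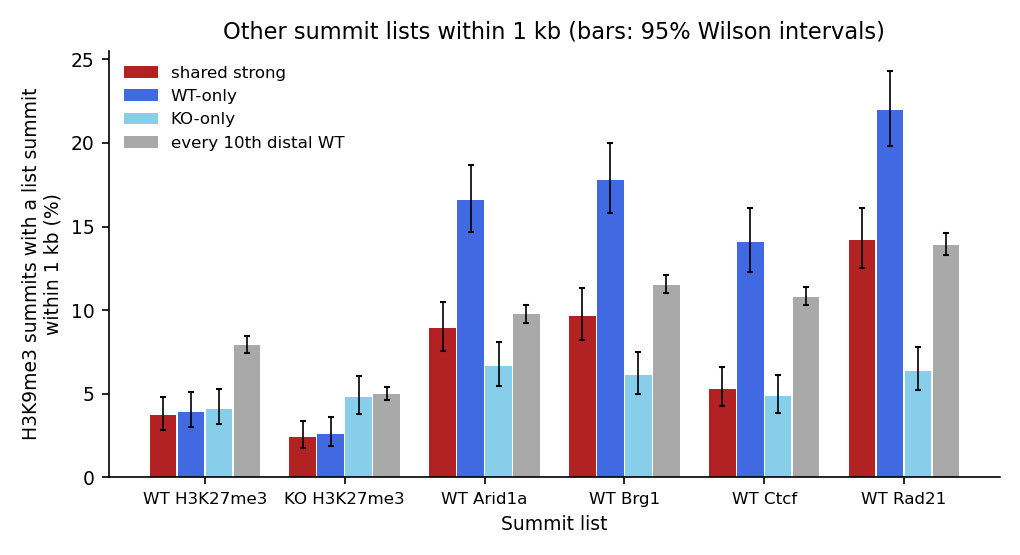
Percentage of H3K9me3 summits with a summit of each of the 6 other lists within 1 kb, for members, WT-only, KO-only and every 10th distal WT summit, with 95% Wilson intervals. Members lie below WT-only summits for Arid1a, Brg1, Ctcf and Rad21, and the intervals of those pairs do not overlap.

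To place the members among genes, GENCODE vM21 was used. Of the members, 917 were intergenic, or 64% (61.5 to 66.5), 450 were intronic (31.4%) and 65 exonic (4.54%). The intergenic share was 51.3% of WT-only (48.6 to 54.0) and 65.4% of KO-only summits (62.8 to 67.8) and 52.3% of all distal WT summits. It was 61.8% of weak-KO summits (59.8 to 63.7), with an interval that overlapped that of members. The median distance to any transcript start was 14534 bp and to a coding one 42.6 kb, and 410 members were over 100 kb from a coding start. A member lay in 451 autosomal genes, of which 358 were protein-coding and 36 held at least 3.

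Zinc finger genes held 48 members, 3.35% (2.54 to 4.42), compared with 1.23% of all distal WT summits. The members lay in 37 of 486 annotated zinc finger genes. Zinc finger genes held 116 strong distal WT summits, of which 41.4% were members, compared with 28.6% of all strong distal WT summits. The highest count, 3, was shared by Zfp992, Zfp933 and Zfp991, which lie within 1.69 Mb of chromosome 4. The strongest member in Zfp991 was exonic, with 6.72 in WT and 10.4 in KO cells and 4 bp between the summits. That in Zfp992 was intronic, with 6.62 and 7.75, and that in Zfp933 had 6.20 and 6.55. Members were also present in Zfp599, Zfp873, Zfp958, Zfp97 and Zfp385c, with 2 in each.

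Long noncoding genes that span the same part of chromosome 4 were among the genes with most members. C230088H06Rik, 474 kb long, held 13 members out of 20 strong distal WT summits. Gm26624, which overlaps it, held 11 of 18, and Gm26573 held 6 of 13. The region from Gm26573 to Zfp933, chr4:146153456-147848366, was delimited after these values were seen. It held 22 members in 1.69 Mb, or 13.0 per Mb, compared with 0.581 per Mb over the autosomes. Of the 22, 19 were multi-copy and 4 lay on the 7 kb element, their WT values ranged from 5.02 to 10.1 and their KO values from 5.02 to 11.2, and 4 had a SWI/SNF summit within 1 kb. It contained 14 zinc finger genes, 5 with a member. The gene copies in the region resemble each other, so the assignment of reads among them is uncertain.

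Other genes with several members were Tmem267 (6 of 6 strong distal summits), Pag1, which encodes a membrane adaptor that binds the kinase Csk (5 of 6), Trak1, an adaptor for the transport of mitochondria (5 of 6), and D10Wsu102e (5 of 10). In Trak1, 4 of 5 members lay on the 7 kb element, in Pag1 3 of 5, and in Larp6, an RNA-binding protein of collagen mRNA, 3 of 3, with a highest KO value of 24.9. The overlapping noncoding genes 2700054A10Rik and AC174800.1 held 4 each, with values up to 18.9 in WT and 19.9 in KO cells. The remaining genes of the 20 with most members held 3 each. As 36 genes held at least 3, these places were given by the number of members per kb of gene. They were Vmn1r43 and Vmn1r42, which overlap, Nrbf2, a subunit of the autophagy lipid kinase complex, AC113003.1, BC024063, Gm3618, Gm10033 and Gm31793, beside Zfp992, Zfp933 and Larp6.

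Of the other gene groups, the vomeronasal receptors Vmn1r and Vmn2r held 7 members, 0.489% (0.237 to 1.01), compared with 0.109% of all distal WT summits. The clustered protocadherins held 2, 0.140% (0.0383 to 0.508), compared with 0.0171% of all distal WT summits. The glucuronosyltransferase genes Ugt held 2, both in the overlapping Ugt1a genes, compared with 0.0162%. The olfactory receptors held 1, in Olfr1459, among 1399 genes, and this 0.0698% was near their 0.0692% of all distal WT summits. Predicted genes of the Gm series held 107 members, 7.47% (6.22 to 8.95), near the 6.42% of all distal WT summits. No member lay in the groups Cyp1 to Cyp4, Serpin, Skint or Speer, or in any of the 30 imprinted genes, and each of these 0 counts allows a share of up to 0.209% (3 of 1432), or 0.268% by the Wilson interval. Over all distal WT summits these groups held 0.0445%, 0.0162%, 0.00342%, 0.0128% and 0.0872%, so shares that small could not have been told from 0 at this number of members.

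Members were mostly isolated. Chained at 10 kb, they formed 1177 clusters, of which 994 were single summits, 134 were pairs and 49 held 3 or more. The largest lay at chr6:47739693-47773001, where 12 members occurred in 33.3 kb with no annotated gene. All 12 were multi-copy, all 12 had Ctcf within 1 kb, 8 had Rad21, 8 had WT H3K27me3, 6 had KO H3K27me3, 6 had Arid1a and 4 had Brg1, and their highest values were 25.8 in WT and 21.6 in KO cells. Summits of all 6 other lists thus lay in this cluster. The next, at chr13:119596829-119602209 in Tmem267, held 6 members in 5.38 kb with values up to 18 and 20.9, none of the other lists within 1 kb of any, and all 6 within 10 kb of an assembly gap. The third, at chr4:147175141-147185696, held 5 members over Zfp991 in the zinc finger region. The other 7 of the 10 largest clusters held 4 each, lay on chromosomes 1, 2, 3, 4, 8 and 15, and had no value above 12.6. Of those, the cluster in Pag1 had 3 of its 4 members on the 7 kb element.

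The ends of chromosomes held more members than their share of all distal summits. The last 1 Mb of sequence held 48 members, 3.35%, compared with 1.02% of all distal WT summits, and the first 1 Mb, nearest the centromere in mouse, held 26, 1.82%, compared with 0.856%. Of the 5011 strong distal WT summits, 100 lay in the last 1 Mb and 68 in the first. Of these, 48.0% and 38.2% were members, compared with 28.6% of all 5011. In the last 20 kb, 13 of 15 strong distal WT summits were members.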

How the data were processed

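ChIP-seq summits of AB17 hepatocytes were analysed, 1 library per group. Per the study's methods, the authors aligned reads to mm10 with Bowtie2, filtered them with SAMtools and Picard, and called peaks with MACS2 against input. Versions are not given in the sources used here, nor how reads with several matches were treated. Each of the 8 deposited lists gives a summit and a value, read here as the −log10 q-value the authors' caller assigned, since no value lies under 1.30. It depends on depth, so WT and KO values are not on 1 scale; each list was thresholded on its own, and the lower of both values ranked the members. The 2 input samples were not analysed.

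Members were found with Python 3.11.15, NumPy 2.4.6, pandas 2.3.3 and numba 0.67.0, against GENCODE vM21 and the GRCm38.p6 reference, which has the coordinates of mm10. Windows of 250 bases on each side of a summit were scored for soft-masking, GC, motifs and copies of their 36-base words, with unlocalized sequence included. Families and the element came from BLAST 2.17.0. Functions were tested on simulated data. Figures used matplotlib 3.10.9.

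No test between groups was possible without replicates, so shares have 95% Wilson intervals. Regions named are the 12 strongest members, the 10 largest 10 kb clusters and the strongest member of the 6 largest families. Genes named are the 20 with most members, and those of fixed symbol groups. Members and lists were chosen with earlier results of these data known. Alternatives changed the threshold, the distances, the clustering, and the members kept. The sequences of families 4 to 6 are not printed, and 1 further sequence is not reported here.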

Additional observations from a re-analysis of the deposited data

Results flagged for a closer look

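The rule was limited to autosomes, and data outside it held such summits too. On the X chromosome, 49 of 119 strong distal WT H3K9me3 summits had a strong KO summit within 1 kb, 41.2%, with WT values up to 21.2. On the Y chromosome, 10 of 30 did, 33.3%, with WT values up to 11.8. Both counts are above the 3 that a count of 0 allows, and neither enters the values of the report.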

How the results depend on the processing

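Of the 8 quantities set out for alternatives, the median GC content moved by less than 1 SD over members in all of them. With a threshold of 10 in both genotypes, 61 members were left, with 68.9% soft-masked, 67.2% intergenic, 75.4% multi-copy, 13.1% near SWI/SNF, 41.0% near Ctcf or Rad21 and 21.3% near H3K27me3, against 17.1% and 4.33% for the last pair over all members. With mostly single-copy windows only, 395 were left, with 37.7% soft-masked, 50.1% intergenic and 22.8% near SWI/SNF, against 15.9% over all members. A KO summit within 500 bp left 951 members, with every share inside its interval over all members. With no start within 5 kb, 67.2% were intergenic and 74.9% multi-copy. The KO distance of 2 kb, 1 summit per 10 kb, the removal of summits shared by 5 or 6 other lists and the removal of those near gaps moved no share outside its interval and no count by over 1.5 times. The number of members thus depends on the threshold and on the KO distance. No paired analysis was possible because each group has 1 library. Read depth, peak widths and signal are unknown from the lists, reads of repeats cannot be assigned to 1 copy, and satellites are poorly covered by the reference.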

Other observations

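The members were spread over all 19 autosomes. Chromosome 10 held the most, 161 or 1.23 per Mb, and chromosome 12 the fewest, 26 or 0.216 per Mb. As a share of the strong distal WT summits of the chromosome, chromosome 13 was highest with 42.1% (33.7 to 51.1) and chromosome 12 lowest with 23.2% (16.4 to 31.8), so the density of members mostly followed the density of strong summits. On chromosome 13, 54.9% of members aligned to the 7 kb element, and on chromosome 10 it was 26.7%.

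Smaller families outside the 7 kb element held different shares of members. The families were built around member windows, which raises these shares by construction, and 28.6% of all strong distal WT summits were members. Family 8 had 22 members among 34 strong distal WT summits, 64.7% (47.9 to 78.5), with a median GC content of 55.9%. Family 14 had 16 of 22, 72.7% (51.8 to 86.8). Family 13, with a median of 1 copy and 42.5% GC, had 17 of 94, 18.1% (11.6 to 27.1). Windows with 1000 copies or more made up 17.6% of KO-only summits, 5.73% of members and 4.46% of WT-only summits.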
